A study of Homo sapiens with 13 samples.

Results

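The genes described here are 33 genes of the actin cytoskeleton and of the transcription factors that read its state, the YAP and TAZ coactivators with their TEAD partners and serum response factor (SRF). They were chosen by name with earlier results of these data known, so their shares called, set against all genes, are a description. All 33 were found among the 43836 genes of the count table. They passed the filter on low counts, which left 17092 genes for testing. The cells were hFOB 1.19, a human fetal osteoblast line immortalised with a temperature-sensitive viral T antigen, and poly-A RNA was sequenced from 12 libraries in 5 groups. Positive controls (PC, n = 2) had 10% fetal bovine serum in the medium, the negative controls (NC, n = 2) had none, and both were cultured with the DMSO vehicle according to the methods of the study. The remaining groups were serum-free cells given 1 µg/mL of resveratrol (RES, n = 3), of peonidin-3-O-glucoside (POG, n = 3) or of another compound that the labels call DEG without spelling it out (n = 2). The treatment protocol names delphinidin-3-glucoside beside the other 2 compounds. All libraries came from 1 cell line. Nothing in the labels says that the libraries of a group came from separate cultures, so p-values measure only the spread between these libraries, which may be technical.

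YAP1 and WWTR1 (which encodes TAZ) are coactivators without a DNA-binding domain of their own. They enter the nucleus when Hippo kinases are inactive and when cells are under tension, and they bind DNA through TEAD1 to TEAD4. SRF works beside them: when monomeric actin is depleted, its cofactors MRTFA and MRTFB are released and drive SRF at CArG boxes in the genes of actin, myosin and their partners. Serum is a classic activator of both routes, in part through lysophospholipids, and in bone-forming cells both have been studied as sensors of load and matrix stiffness.

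The binding motifs of these factors were searched in the 250 bases before each RefSeq start site (GRCh38.p14), as a description of which genes carry them. The TEAD motif was CATTCC or its reverse complement GGAATG, and the CArG box was searched by its consensus, on both strands for each. No overlap between the motifs was required or removed. Of 35116 promoters in the table, 11.9% held a TEAD motif and 1.16% a CArG box. The 33 genes had 56 entries, from 27 genes, and 26.8% of these entries held a TEAD motif and 16.1% a CArG box. Many of the genes were listed because they are known targets of these factors, and entries of 1 gene (up to 12, for FHL1) share sequence, so these shares are a description. A TEAD motif lay in at least 1 entry of 14 genes and a CArG box in at least 1 entry of 7. ACTA2, CNN1, TPM1, TPM2, CALD1 and LMOD1 had no CArG box in any entry. Only exact matches within the window were counted, so a missing match does not show that a gene lacks a site. No entry was found for CCN1, TAGLN, MYL9, TEAD1, TEAD4 or CRIM1. The windows of CCN2 (chr6:131951373-131951622, minus strand) and ANKRD1 (chr10:90921088-90921337, minus strand) are shown because both genes were called with serum and with POG and are widely used readouts of YAP, with the TEAD motifs in capitals. CCN2 held motifs beginning 169, 104 and 95 bases before the start, and ANKRD1 held motifs at 220 and 128 bases.
CCN2: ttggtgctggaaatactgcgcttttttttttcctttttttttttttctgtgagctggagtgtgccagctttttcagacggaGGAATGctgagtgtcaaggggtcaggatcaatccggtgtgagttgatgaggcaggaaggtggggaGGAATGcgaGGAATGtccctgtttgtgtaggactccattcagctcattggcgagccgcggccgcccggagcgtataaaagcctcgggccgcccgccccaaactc
ANKRD1: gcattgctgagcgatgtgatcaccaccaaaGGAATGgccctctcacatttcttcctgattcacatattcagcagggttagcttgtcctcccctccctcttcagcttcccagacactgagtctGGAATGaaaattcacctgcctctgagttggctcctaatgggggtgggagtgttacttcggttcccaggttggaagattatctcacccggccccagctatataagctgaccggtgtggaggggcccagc

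The windows of ACTG2 (chr2:73892758-73893007, plus strand), CNN2 (chr19:1026358-1026607, plus strand) and FLNA (chrX:154374635-154374884, minus strand) are shown for the CArG box, in capitals. ACTG2, whose fold change with serum was the largest of the 33, held boxes beginning 110 and 73 bases before the start, and CNN2 and FLNA held 1 each, at 89 and 94 bases.
ACTG2: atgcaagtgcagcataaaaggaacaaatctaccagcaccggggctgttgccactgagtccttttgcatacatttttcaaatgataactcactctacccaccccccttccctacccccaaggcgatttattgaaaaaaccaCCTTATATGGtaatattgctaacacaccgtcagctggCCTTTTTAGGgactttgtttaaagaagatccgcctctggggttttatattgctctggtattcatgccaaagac
CNN2: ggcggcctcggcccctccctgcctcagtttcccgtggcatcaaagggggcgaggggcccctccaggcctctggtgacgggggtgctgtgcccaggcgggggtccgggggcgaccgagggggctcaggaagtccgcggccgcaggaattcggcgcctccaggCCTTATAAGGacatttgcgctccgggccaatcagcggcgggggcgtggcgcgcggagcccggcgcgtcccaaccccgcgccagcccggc
FLNA: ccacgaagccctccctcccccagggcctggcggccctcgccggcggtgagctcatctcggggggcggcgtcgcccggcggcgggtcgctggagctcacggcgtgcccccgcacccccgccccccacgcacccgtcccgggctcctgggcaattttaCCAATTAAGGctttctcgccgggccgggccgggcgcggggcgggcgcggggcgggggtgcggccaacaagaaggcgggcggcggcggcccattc

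**Figure D1:**
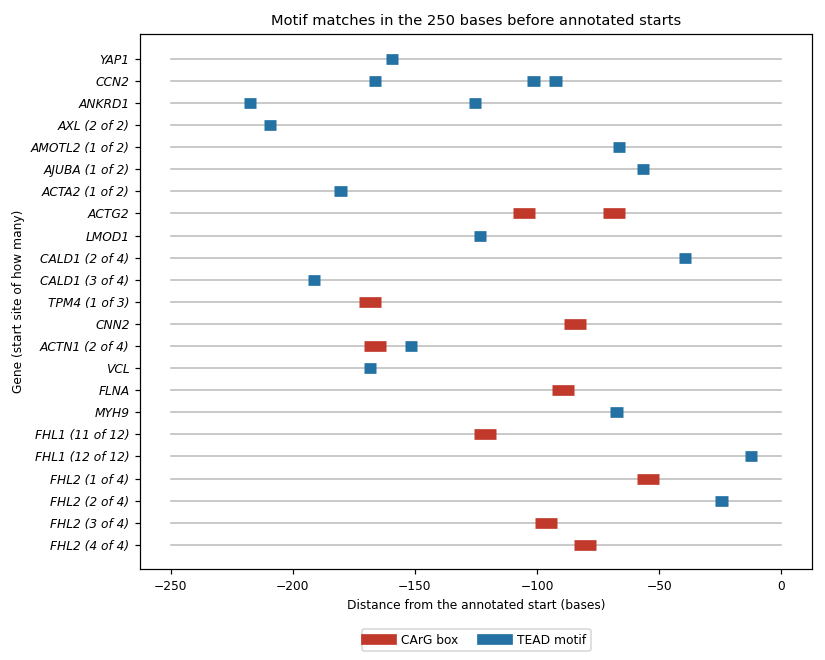
Positions of CArG boxes (red) and TEAD motifs (blue) in the 250 bases before annotated RefSeq starts, for the starts of the 33 genes that held at least 1 match (the x axis is the distance from the start in bases, and each row is 1 start). The cluster of 3 TEAD motifs belongs to CCN2 and the pair of CArG boxes to ACTG2.

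Library totals ran from 38464619 to 51416358 assigned reads, and 3.03% to 3.91% of the reads came from mitochondrial genes. Levels are given in CPM (counts-per-million) after TMM scaling, an edgeR scaling that aligns the libraries on the bulk of genes. Osteoblast markers were partly present: COL1A1 (collagen type I) stood at 2463 to 2869 CPM and RUNX2 (the osteoblast master factor) at 44.3 to 51.6 CPM, while SP7 had 53 reads and IBSP 1 read over all 12 libraries. The summed CPM of 6 smooth muscle markers was 77.9 to 83.0 in PC and 34.6 to 45.6 in the other libraries. Most of it came from CNN1, itself one of the 33 genes, and from MYOCD, while MYH11, which defines mature smooth muscle, stayed at or below 0.569 CPM. The summed CPM of 4 endothelial markers ran from 34.5 to 58.4 and came almost wholly from TEK, and the endothelial gene CDH5 had 16 reads in all. Summed epithelial, immune and adipocyte markers did not exceed 1.17 CPM. Summed skeletal and cardiac muscle markers, almost wholly ACTN2, ran from 10.2 to 17.7 CPM and were lower with each compound than in NC. Summed chondrocyte markers were 6.47 to 6.54 CPM in PC and 2.36 to 5.15 CPM in the other libraries.

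Levels of different genes were compared per length, as RPKM (here the scaled CPM divided by the length of all annotated exons). The highest mean RPKM over all libraries belonged to FLNA (the actin crosslinker filamin A) at 166.6, CCN1 at 139, ZYX (zyxin, of focal adhesions) at 134, TPM2 at 131 and MYH9 (the heavy chain of nonmuscle myosin) at 105, all above the 98th percentile of tested genes. At the other end were the smooth muscle genes TAGLN at 8.93 and ACTA2 at 5.07, then ANKRD1 at 1.97, LMOD1 at 0.210 and ACTG2 at 0.180. The median tested gene had 3.61 RPKM. The lengths take in the exons of every annotated transcript, 6550 bases for TAGLN, 5628 for ACTA2, 14700 for TPM1 and 3183 for TPM2. The ranks therefore depend on the annotation as well as on the reads, and a gene with long annotated exons can rank too low. The library values of 12 of the genes are in the plot of levels by library.

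**Figure D2:**
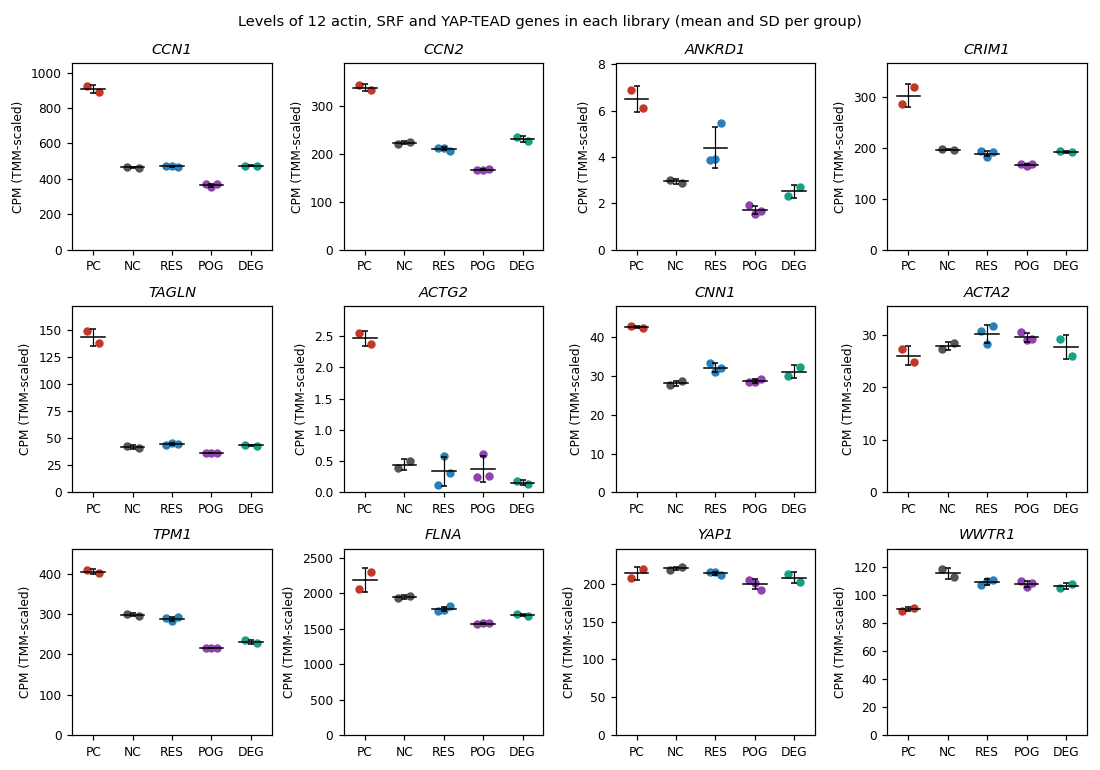
TMM-scaled CPM (y axis, from 0, a separate scale for each gene) of 12 of the 33 genes in each of the 12 libraries, by group (x axis), with the mean as a bar and the SD as an error bar. CCN1, CCN2, TAGLN and ANKRD1 were highest in both PC libraries and lowest in all 3 POG libraries.

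Serum was the widest contrast for these genes. With serum 21 of the 33 were higher and 4 lower than in NC at a false discovery rate (FDR) under 0.05 in edgeR's exact test, against 21.5% of all tested genes higher and 20.9% lower (42.4% called in all). The median log2 fold change of the 33 was 0.32, against -0.01 over all tested genes. Among the 9912 tested genes that averaged 10 CPM or more, 29.6% were higher and 27.5% lower, and of the 30 genes of the group at that level 19 were higher and 4 lower. Several of the largest changes were in targets of YAP-TEAD and in smooth muscle genes, while the factors themselves were lower or not called. In bulk RNA such as this, fewer cells of a type and less RNA per cell cannot be told apart.

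CCN1 (CYR61, a matricellular protein secreted onto integrins) stood at 923 and 892 CPM in PC and at 466 and 463 CPM in NC. Both serum libraries lay far above the others, and the log2 fold change was 0.97 (SE 0.0297, FDR = 7.56e-161). CCN2 (CTGF, a related profibrotic factor) stood at 344 and 334 CPM with serum and at 221 and 226 CPM without, a log2 fold change of 0.60 (SE 0.0329, FDR = 4.29e-57). ANKRD1, a nuclear ankyrin repeat protein whose gene is widely used as a readout of YAP, was scarce, at 6.88 and 6.09 CPM with serum and 3.02 and 2.87 CPM without. Its groups did not overlap either, and its log2 fold change was 1.14 (SE 0.164, FDR = 1.11e-10). Of the 7 YAP-TEAD targets 6 rose with serum. The others were CRIM1 (a transmembrane regulator of BMPs) at 0.62, AXL (a receptor tyrosine kinase) at 0.46 and AMOTL2 (an angiomotin that holds YAP in the cytoplasm) at 0.18. The exception was LATS2, the kinase that phosphorylates YAP, at -0.06, which was called lower at -0.14 (FDR = 0.0013) without PC replicate 2.

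The factors moved the other way or were not called. WWTR1 fell from 118 and 113 CPM in NC to 88.8 and 90.9 CPM in PC, a log2 fold change of -0.36 (SE 0.04, FDR = 7.83e-16). TEAD2 fell from 43.6 and 42.8 CPM to 37.4 and 36.7 CPM, a log2 fold change of -0.22 (SE 0.0552, FDR = 0.000434). The other 4 of the 6 factors were not called. YAP1 stood at 208 and 220 CPM with serum and 218 and 222 CPM without (log2 fold change -0.04, SE 0.0371, FDR = 0.447), so that its groups overlapped. TEAD1 was uneven with serum, at 208 and 253 CPM against 240 and 249 CPM (-0.09, SE 0.0491, FDR = 0.188). Without PC replicate 2 it was called lower at -0.23 (FDR = 2.64e-11), and with plain library totals at -0.13 (FDR = 0.0429). TEAD3 had 104 and 102 CPM against 109 and 104 CPM (-0.05, SE 0.0392, FDR = 0.381). TEAD4 had 47.2 and 46.0 CPM against 45.2 and 46.0 CPM (0.03, SE 0.0575, FDR = 0.722). Of the scaffolds that restrain LATS kinases or YAP, AJUBA rose by 0.23 and AMOTL1 fell by 0.27 on the log2 scale.

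Of the 9 smooth muscle type contractile genes, 7 rose with serum. ACTG2 (smooth muscle gamma actin) had 126 and 100 reads with serum against 15 and 20 without, that is 2.55 and 2.37 CPM against 0.387 and 0.503 CPM, with a log2 fold change of 2.46 (SE 0.419, FDR = 3.08e-08). TAGLN (transgelin, or SM22) went from 43.3 and 41.1 CPM to 149 and 138 CPM, the most clearly separated of the 33 genes by its FDR (log2 fold change 1.77, SE 0.0468, FDR = 2.24e-284). CNN1 (calponin 1) went from 27.7 and 28.6 CPM to 42.9 and 42.5 CPM (0.60, SE 0.0568, FDR = 1.26e-23). These 3 genes rose in both serum libraries over both serum-free ones. MYL9 (a myosin light chain) rose by 0.71, TPM1 and TPM2 (tropomyosins) by 0.44 and 0.36, and CALD1 (caldesmon) by 0.32. ACTA2 (smooth muscle alpha actin) did not follow: it stood at 27.3 and 24.8 CPM with serum and 27.3 and 28.4 CPM without (-0.09, SE 0.0683, FDR = 0.287). The interval of its difference ran from -0.23 to 0.04, below the changes of TAGLN and CNN1. LMOD1 (leiomodin 1), at 0.759 to 1.13 CPM with serum and 0.697 to 0.704 CPM without, was not called either.

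The broad actin and adhesion genes changed by less. Of 9, 7 rose and 1 fell. FHL2 (a LIM protein and SRF cofactor) rose by 0.51, TPM4 by 0.40, MYH9 by 0.35, ACTN1 (alpha-actinin) by 0.34, CNN2 by 0.20, FLNA by 0.17 and ZYX by 0.15. VCL (vinculin, which links integrins to actin) fell by 0.11 (FDR = 0.0137), and this call was lost without PC replicate 1 (FDR = 0.159) or NC replicate 2 (FDR = 0.163). FHL1 was not called (-0.04). The summed smooth muscle markers given above moved with serum. Other sums did too, among them the endothelial list, at 55.1 to 58.3 CPM in PC and 41.6 to 43.5 CPM in NC. The osteoblast list stood at 5463 to 5525 CPM in PC and 5264 to 5322 CPM in NC. The part of these markers in the serum results was not tested.

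**Figure D3:**
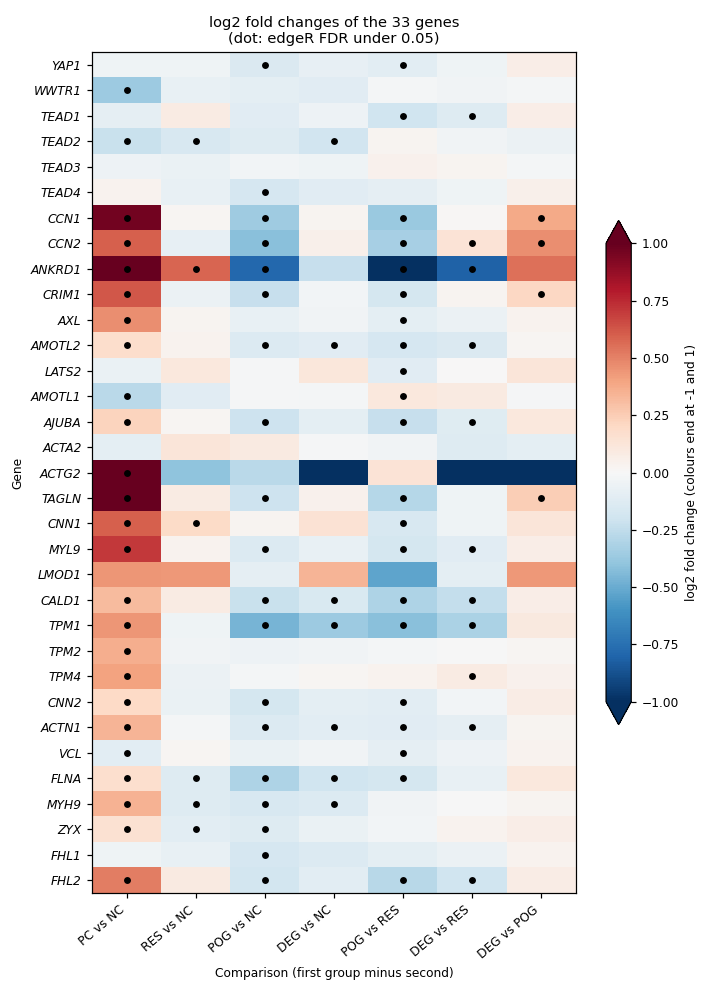
Log2 fold changes of the 33 genes (rows) in the 7 comparisons (columns, first group minus second), with colours that end at -1 and 1 and a dot where edgeR's FDR was under 0.05. The serum column is mostly positive, and the POG columns are mostly negative where called.

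Resveratrol left most of these genes near NC. It gave 2 higher and 4 lower calls among the 33, against 4.94% higher and 6.25% lower among all tested genes (11.2% called), and the median of the 33 was -0.03. Among genes that averaged 10 CPM or more, 6.12% were higher and 9.65% lower. Of the 30 genes of the group at that level, 1 was higher and 4 lower, near those shares. ANKRD1 had 3.86, 3.91 and 5.45 CPM with RES against 3.02 and 2.87 CPM in NC, a log2 fold change of 0.58 (SE 0.159, FDR = 0.00587). Every RES library lay above NC, but the call was lost without NC replicate 1 (FDR = 0.0643), NC replicate 2 (FDR = 0.121) or RES replicate 3 (FDR = 0.0965). CNN1 had 33.3, 31.0 and 32.2 CPM with RES (0.19, SE 0.0535, FDR = 0.00832), and was lost without NC replicate 1 (FDR = 0.175) or RES replicate 1 (FDR = 0.0639). TEAD2 was lower at 38.5, 38.2 and 39.3 CPM (-0.16, SE 0.0502, FDR = 0.0246), a call lost without NC replicates 1 or 2 (FDR = 0.236 and 0.132) or RES replicates 1 or 2 (FDR = 0.0735 and 0.0892). FLNA fell by 0.13, MYH9 by 0.13 and ZYX by 0.10. FLNA lost its call without NC replicate 1 (FDR = 0.0582), NC replicate 2 (FDR = 0.177) or RES replicate 1 (FDR = 0.0559), MYH9 without NC replicate 2 (FDR = 0.0848), and ZYX without NC replicates 1 or 2 (FDR = 0.256 and 0.128) or RES replicates 1 or 3 (FDR = 0.131 and 0.0635). Without NC replicate 1, NC replicate 2 or RES replicate 1, the count of 6 calls came down to 1, 1 and 2. With plain library totals in place of TMM the split was 5 higher and 1 lower, against 2 higher and 4 lower here.

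The other 2 readouts of YAP were not called with RES. CCN1 had 471, 474 and 464 CPM (log2 fold change 0.02, interval -0.04 to 0.07, FDR = 0.840). CCN2 had 212, 213 and 207 CPM, each below both NC libraries (-0.08, SE 0.0304, FDR = 0.0948). Among the factors, YAP1 had 215, 215 and 212 CPM, WWTR1 107, 110 and 111 CPM, TEAD1 259, 261 and 257 CPM, TEAD3 102, 102 and 100.3 CPM, and TEAD4 39.7, 44.5 and 45.3 CPM, none of which was called. ACTA2, at 30.7, 28.3 and 31.7 CPM, and TAGLN, at 44.2, 45.4 and 44.6 CPM, were not called. Summed markers also differed between RES and NC, at 51.8 to 58.4 CPM against 41.6 to 43.5 CPM for the endothelial list, 42.6 to 45.6 CPM against 38.02 to 38.8 CPM for the smooth muscle list and 4908 to 5036 CPM against 5264 to 5322 CPM for the osteoblast list. Their part in these results was not tested.

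POG lowered more of the genes. Of the 33, 19 were lower than in NC and 0 higher, against 8.6% lower and 5.98% higher among all tested genes (14.6% called). Among genes that averaged 10 CPM or more, 11.9% were lower, and 18 of the 30 genes of the group at that level. The median of the 33 was -0.14, so that most of the changes were small. The serum, RES, POG and DEG comparisons all use the same 2 NC libraries, so a chance deviation of NC enters each of them.

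Among the YAP-TEAD targets 5 of 7 fell. CCN1 stood at 368, 354 and 368 CPM, below both NC libraries (log2 fold change -0.35, SE 0.027, FDR = 3.18e-25). CCN2 stood at 166.5, 167 and 169 CPM (-0.42, SE 0.0304, FDR = 3.61e-31). ANKRD1 stood at 1.91, 1.54 and 1.68 CPM (-0.78, SE 0.177, FDR = 0.000222). In each of these 3 genes all POG libraries were below every other library of the series. CRIM1 fell by 0.23 and AMOTL2 by 0.14, the latter lost without NC replicate 1 (FDR = 0.0507). LATS2 (-0.01) and AXL (-0.07) were not called. The scaffold AJUBA fell by 0.21, and AMOTL1 was not called (-0.01).

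Of the factors, YAP1 stood at 204, 202 and 191 CPM (-0.14, SE 0.0339, FDR = 0.00197), a call lost without NC replicate 2 (FDR = 0.0842). TEAD4 was at 42.5, 39.6 and 39.9 CPM (-0.17, SE 0.0531, FDR = 0.0227), a call lost without either NC library (FDR = 0.113 and 0.218), POG replicate 2 (FDR = 0.108) or POG replicate 3 (FDR = 0.0963). WWTR1 was at 110, 106 and 108 CPM (-0.10, FDR = 0.0766), TEAD1 at 227, 224 and 227 CPM (-0.11, FDR = 0.0991), TEAD2 at 40.4, 38.4 and 39.4 CPM (-0.13, FDR = 0.0678) and TEAD3 at 105, 102 and 107 CPM (-0.02, FDR = 0.786), none of which was called.

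Of the 9 contractile genes 4 fell. TPM1 stood at 217, 216 and 215 CPM against 301 and 295 CPM in NC (-0.47, SE 0.0289, FDR = 3.77e-42), and its POG libraries lay below all others. TAGLN was at 36.7, 36.6 and 36.6 CPM (-0.20, SE 0.0462, FDR = 0.000769), lost without NC replicate 1 (FDR = 0.0946). CALD1 (237, 236 and 240 CPM) fell by 0.22 and MYL9 by 0.14, and MYL9 was lost without NC replicate 1 (FDR = 0.188) or POG replicate 2 (FDR = 0.0609). ACTA2, at 30.5, 29.0 and 29.2 CPM (0.09, FDR = 0.425), and CNN1, at 28.3, 28.4 and 29.4 CPM (0.03, FDR = 0.842), were not called, and neither were TPM2, LMOD1 or ACTG2. The broad actin and adhesion genes included 7 of 9 that fell: FLNA by 0.31, FHL2 by 0.18, CNN2 by 0.17, FHL1 by 0.17, MYH9 by 0.16, ACTN1 by 0.13 and ZYX by 0.13. FLNA stood at 1564, 1575 and 1580 CPM against 1928 and 1964 CPM in NC. Of these calls FHL1 was lost without NC replicate 2 (FDR = 0.133) and ZYX without NC replicate 1 (FDR = 0.0664). TPM4 and VCL were not called. The summed smooth muscle markers were 34.6 to 36.8 CPM with POG and 38.02 to 38.8 CPM in NC. The summed endothelial markers were 34.5 to 37.1 CPM with POG and 41.6 to 43.5 CPM in NC, and the summed osteoblast markers 4752 to 4788 CPM and 5264 to 5322 CPM. The osteoblast sum was carried by COL1A1 (mean 2534 CPM with POG and 2845 CPM in NC) and COL1A2 (1117 and 1347 CPM), while RUNX2 (49.2 and 47.1 CPM) and SPARC (1060.4 and 1046 CPM) had slightly higher means with POG. Their part in these results was not tested.

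The DEG compound gave fewer calls. Of the 33, 7 were lower than in NC and 0 higher, against 6.11% lower and 3.52% higher among all tested genes (9.64% called), and the median of the 33 was -0.08. Among genes that averaged 10 CPM or more, 8.55% were lower and 5.27% higher. All 7 lower calls were among the 30 genes of the group at that level. TPM1 stood at 235 and 228 CPM (-0.37, SE 0.032, FDR = 9.12e-21) and FLNA at 1709 and 1682 CPM (-0.20, SE 0.032, FDR = 3.82e-05). TEAD2 stood at 35.5 and 40.1 CPM (-0.19, SE 0.0559, FDR = 0.0143), a call lost without NC replicate 1 (FDR = 0.155), NC replicate 2 (FDR = 0.0836) or DEG replicate 1 (FDR = 0.492). The others were CALD1 at -0.16, MYH9 at -0.13, AMOTL2 at -0.11 and ACTN1 at -0.11. CALD1 was lost without NC replicate 1 (FDR = 0.168) or DEG replicate 2 (FDR = 0.0661), MYH9 without NC replicate 2 (FDR = 0.103), DEG replicate 1 (FDR = 0.0924) or DEG replicate 2 (FDR = 0.0515), and AMOTL2 and ACTN1 without any 1 of the 4 libraries. The count of 7 calls was 3 without any 1 of these 4 libraries. The summed osteoblast markers were 4764 to 4771 CPM with DEG, against the NC values given above, and the summed endothelial markers 37.3 to 37.8 CPM. The osteoblast sum was again carried by COL1A1 (mean 2484 CPM with DEG and 2845 CPM in NC) and COL1A2 (1121 and 1347 CPM). RUNX2 (48.0 and 47.1 CPM) and SPARC (1106 and 1046 CPM) had higher means with DEG. The part of these markers in the results was not tested.

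The 3 YAP readouts were not called with DEG. CCN1 stood at 475 and 473 CPM, above both NC libraries by little (log2 fold change 0.03, interval -0.03 to 0.09, FDR = 0.733), and CCN2 at 236 and 228 CPM (0.05, interval -0.01 to 0.12, FDR = 0.479). ANKRD1 stood at 2.32 and 2.70 CPM (-0.23, interval -0.60 to 0.14, FDR = 0.575). TAGLN was at 43.8 and 43.2 CPM, CNN1 at 29.9 and 32.4 CPM and ACTA2 at 29.3 and 26.1 CPM, none of them called. ACTG2 had only 7 and 5 reads, below both NC libraries, with a log2 fold change of -1.51 (SE 0.627, FDR = 0.082). YAP1 had 213 and 203 CPM, WWTR1 105 and 108 CPM, TEAD1 236 and 237 CPM, TEAD3 104 and 103 CPM, and TEAD4 43.5 and 40.6 CPM, none of them called.

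**Figure D4:**
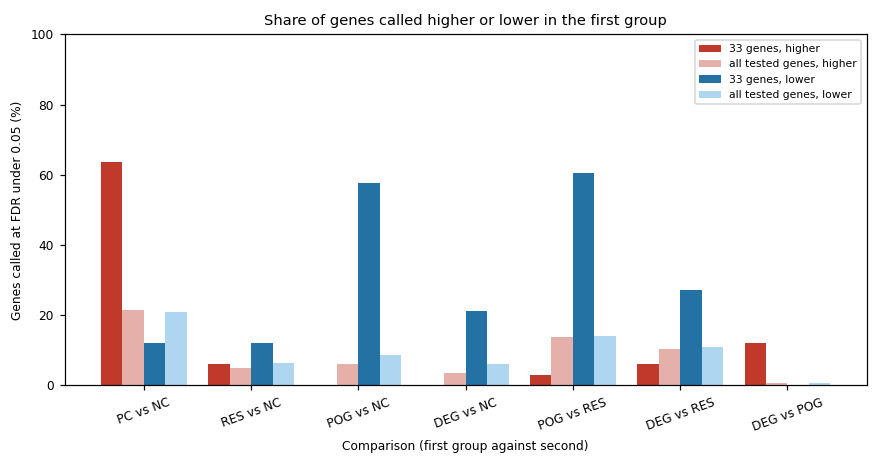
Share of genes called higher or lower in the first group of each comparison (edgeR FDR under 0.05), for the 33 genes (dark bars) and for all tested genes (light bars), in percent from 0. The 33 genes exceed the background most for serum (higher) and for POG against NC or RES (lower).

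The compounds were given at the same dose by mass and were compared with one another, in 3 pairs with the FDR taken over genes within each pair. Molar doses are not given and need not be equal. POG and RES differed most. Of the 33 genes, 20 were lower with POG and 1 higher, against 14.1% lower and 13.7% higher among all tested genes (27.9% called). Among genes that averaged 10 CPM or more, 17.5% were lower and 20.1% higher. Of the 30 genes of the group at that level, 19 were lower and 1 higher. ANKRD1 was at 1.54 to 1.91 CPM with POG and 3.86 to 5.45 CPM with RES (-1.36, SE 0.149, FDR = 7.45e-18), TPM1 at 215 to 217 CPM and 283 to 293 CPM (-0.42, SE 0.026, FDR = 1.08e-42), and CCN1 at 354 to 368 CPM and 464 to 474 CPM (-0.37, SE 0.0243, FDR = 9.76e-35). No POG library overlapped a RES library in these 3 genes. All 7 YAP-TEAD targets were lower with POG, CCN2 by 0.33, CRIM1 by 0.18, AMOTL2 by 0.17, LATS2 by 0.11 and AXL by 0.10, of which LATS2 was lost without RES replicate 2 (FDR = 0.084), POG replicate 2 (FDR = 0.0734) or POG replicate 3 (FDR = 0.0537). CALD1 was lower by 0.31, TAGLN by 0.29, FHL2 by 0.27, AJUBA by 0.23 and TEAD1 by 0.20. Differences of 0.09 to 0.18 were called in FLNA, MYL9, CNN1, ACTN1, YAP1, CNN2 and VCL. Of these YAP1 was lost without RES replicate 2 (FDR = 0.0517) or POG replicate 3 (FDR = 0.147), CNN2 without RES replicate 1 (FDR = 0.0501), and VCL without any POG library or RES replicates 2 or 3 (FDR up to 0.118). The only rise, AMOTL1 at 0.10, was lost without any 1 of the 6 libraries.

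DEG and POG differed in few genes of any kind, with 0.573% of all tested genes higher with DEG and 0.497% lower (1.07% called), and 4 of the 33 genes were higher and 0 lower. Among genes that averaged 10 CPM or more, 0.868% were higher and 0.716% lower, and all 4 called genes of the group were at that level. CCN2 was at 236 and 228 CPM with DEG and 166.5 to 169 CPM with POG, a log2 difference of 0.47 (SE 0.0304, FDR = 3.64e-38). CCN1 was at 475 and 473 CPM against 354 to 368 CPM, a log2 difference of 0.38 (SE 0.027, FDR = 3.48e-28). TAGLN was at 43.8 and 43.2 CPM against 36.6 to 36.7 CPM (0.25, SE 0.0461, FDR = 0.000299), and CRIM1 at 194 and 191 CPM against 165 to 168 CPM (0.20, SE 0.0365, FDR = 0.000274). CCN1 and CCN2 held under every alternative, whereas TAGLN (FDR = 0.0688) and CRIM1 (FDR = 0.0748) lost their calls without DEG replicate 1, leaving 2. ANKRD1 also had no overlap, but did not pass (0.55, interval 0.20 to 0.91, FDR = 0.122), and neither did TPM1 (0.10, interval 0.04 to 0.16, FDR = 0.130). For YAP1 the difference was 0.06 (interval -0.00 to 0.13).

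Against RES, DEG gave 9 lower and 2 higher calls among the 33 genes, with 10.9% lower and 10.4% higher among all tested genes (21.2% called). Among genes that averaged 10 CPM or more, 12.8% were lower and 16.1% higher. Of the 30 genes of the group at that level, 8 were lower and 2 higher. Over all 33, the lower calls were led by ANKRD1, at 2.32 and 2.70 CPM against 3.86 to 5.45 CPM (-0.81, SE 0.163, FDR = 1.95e-05), TPM1 (-0.32, SE 0.0293, FDR = 3.74e-19) and CALD1 at 250 and 248 CPM against 288 to 301 CPM (-0.24, SE 0.0319, FDR = 1.45e-09). FHL2 was lower by 0.20 and AMOTL2 by 0.14. TEAD1 was lower by 0.13, AJUBA by 0.12, MYL9 by 0.11 and ACTN1 by 0.09, and each of these 4 lost its call without DEG replicate 1, DEG replicate 2 or RES replicate 3. MYL9, ACTN1 and TEAD1 also lost it without RES replicate 2 (FDR = 0.0809, 0.0759 and 0.112). TEAD1 lost it without RES replicate 1 (FDR = 0.0957) and with DESeq2 (FDR = 0.204) as well. CCN2 was higher by 0.14 (SE 0.0303, FDR = 0.000836), but lost this call without DEG replicate 1 (FDR = 0.0966), and CCN1 was not called (0.01, interval -0.04 to 0.06). The other rise was TPM4 at 0.08 (FDR = 0.0451), lost without any 1 of the 5 libraries. The count of 11 calls was 7, 6, 5 and 6 without RES replicate 2, RES replicate 3, DEG replicate 1 and DEG replicate 2. ACTA2, LMOD1 and TEAD3 were called in none of the 7 comparisons.

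**Figure D5:**
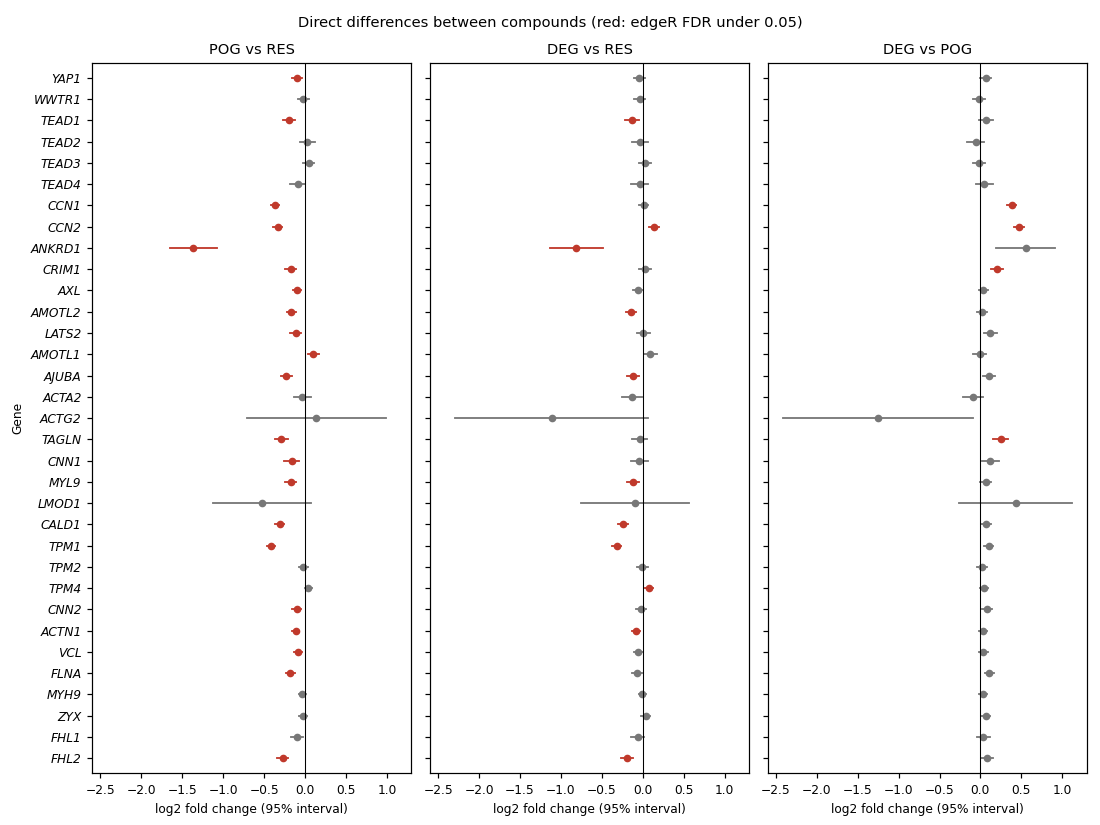
Log2 differences of the 33 genes between compounds at the same dose by mass, POG against RES, DEG against RES and DEG against POG, with 95% intervals (x axis in log2, red where edgeR's FDR was under 0.05). CCN1 and CCN2 lie left of 0 for POG against RES and right of 0 for DEG against POG.

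Other genes of the pathways were counted by list. Of 18 further YAP-TEAD targets 17 were tested. Serum gave 14 higher and 0 lower calls, RES 2 and 2, POG 1 and 9, and DEG 1 and 5. The shares called were 82.4%, 23.5%, 58.8% and 35.3%, against 42.4%, 11.2%, 14.6% and 9.64% of all tested genes. EDN1 (endothelin 1) rose from 0.688 ± 0.0230 CPM (SD, n = 2) in NC to 3.70 ± 0.738 CPM with serum, a log2 fold change of 2.42. IGFBP3 rose by 1.64. THBS1 (thrombospondin 1) fell from 191 ± 3.46 CPM in NC to 99.6 ± 1.90 CPM (n = 3) with POG, a log2 fold change of -0.94, and also fell by 0.71 with DEG and by 0.38 with RES, whereas it rose by 0.43 with serum. GADD45A, a stress gene, rose in all 4 comparisons with NC, by 0.75 (serum), 0.38 (RES), 0.41 (POG) and 0.24 (DEG), the last lost without NC replicate 1 (FDR = 0.0746) or DEG replicate 1 (FDR = 0.121). NT5E (the ectonucleotidase CD73) had log2 fold changes of 0.38 (serum), 0.27 (RES), -0.26 (POG) and -0.25 (DEG), all called. The serum values of THBS1, GADD45A and NT5E and the POG value of NT5E were added after their values were seen.

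Of 24 Hippo kinases, scaffolds and YAP partners 22 were tested, of which serum raised 5 and lowered 9, RES 3 and 0, POG 3 and 3, and DEG 2 and 3. The shares called were 63.6%, 13.6%, 27.3% and 22.7%, against 42.4%, 11.2%, 14.6% and 9.64% of all tested genes, and the share for RES was near that background. MAP4K4, a kinase that activates LATS, fell by 0.27 with serum, 0.31 with POG and 0.31 with DEG. FRMD6 rose by 0.35 with serum and fell by 0.29 with POG and by 0.22 with DEG. VGLL3, a TEAD cofactor, rose by 0.45 with serum and fell by 0.28 with POG. Of 28 genes of SRF, its cofactors and its other targets 27 were tested, of which serum raised 12 and lowered 5, RES 3 and 3, POG 2 and 8, and DEG 2 and 6. Here the shares were 63.0%, 22.2%, 37.0% and 29.6%.

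MYOCD, the muscle cofactor of SRF, was the member of that list that moved most. It had 6.29 ± 1.11 CPM in NC, 33.4 ± 3.55 CPM with serum (log2 fold change 2.41, FDR = 1.75e-97), 2.93 ± 0.244 CPM with POG (-1.10, FDR = 7.64e-16) and 4.61 ± 0.0495 CPM with DEG (-0.45, FDR = 0.0152). The POG and serum calls held under every alternative, and the DEG call was lost without NC replicate 1 (FDR = 0.493), DEG replicate 1 (FDR = 0.111) or DEG replicate 2 (FDR = 0.137). SRF itself was called in none of the 7 comparisons (95.4 ± 0.422 CPM in NC, 93.8 ± 0.544 CPM with serum and 92.5 ± 1.82 CPM with POG), and is given here after its values were seen. ACTB (beta actin), whose reads can be shared with near-identical actin copies, rose by 0.46 with serum and fell by 0.26 with POG and by 0.18 with DEG, the latter values added after they were seen. SVIL (supervillin) fell by 0.69 with serum and, among the compounds, by 0.15 (RES), 0.37 (POG) and 0.41 (DEG), of which the RES call was lost without either NC library (highest FDR = 0.0705).

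Exons of 10 of the 33 genes overlap another annotated gene, 7 of them (CCN2, ACTA2, TAGLN, VCL, ZYX, YAP1 and TEAD2) on the opposite strand and 3 (ACTN1, AMOTL2 and AJUBA) on the same strand. Whether the counting used strand is not given in the sources used here, so reads of these genes cannot be wholly told apart from their neighbours. CCN1 (chr1:85580761-85584589, plus strand of hg38), ANKRD1 (chr10:90912096-90921087, minus), ACTG2 (chr2:73892314-73919865, plus) and TPM1 (chr15:63042620-63071915, plus) have no such overlap, although reads of ACTG2 and ACTA2 could be shared with the other actin genes, which have near-identical coding sequence.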

How the data were processed

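Poly-A mRNA-seq was measured in 12 libraries of hFOB 1.19 cells. The deposited values are raw counts of reads per ENSEMBL gene. The authors aligned reads to hg38 with STAR (BWA MEM is also named) and counted them with featureCounts; versions, annotation release and strand setting are not given in the sources used here. A 13th labelled sample (DEG replicate 3) was not analysed here, and 0 columns belonged to no labelled sample. Gene symbols were matched for 43214 of the 43836 genes.

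Samples were grouped by the labels. The study names edgeR's exact test on raw counts with Benjamini-Hochberg correction. Here that test (edgeR 4.0.16, R 4.3.3) was run with TMM scaling, after filterByExpr (17092 genes, 99.9668% of reads), with dispersions from all 12 libraries and Benjamini-Hochberg adjustment over all tested genes (FDR under 0.05). Standard errors came from the quasi-likelihood fit, and 95% intervals are the log2 fold change with 1.96 standard errors on either side. These intervals can be narrower than the exact test implies. For ZYX in DEG against NC the interval was -0.126 to -0.0056, while the exact test gave p = 0.0694. The common biological coefficient of variation was 3.20%, and the test was checked on simulated counts in which 100 of 17092 genes were changed. It recovered 69% to 75% of 1.5-fold changes and 77% to 79% of 2-fold changes. Beside these 69 to 79 recovered genes it called 10 to 13 unchanged genes, so the share of false calls in the simulation was above the nominal 0.05. The FDR of calls near the threshold may therefore be too low, and a gene that is not called may still have changed. RPKM used GENCODE v44 exon lengths. Alternatives were the quasi-likelihood test, DESeq2 1.42.0, other scalings, filters, dispersions and thresholds, and leaving out each library.

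The 33 genes and the other lists were chosen with earlier results of these data known. Full values are given for the 3 called genes with the largest absolute log2 fold change in each comparison and for CCN1, CCN2, ANKRD1, YAP1, WWTR1, TEAD1 to TEAD4, ACTA2, TAGLN and CNN1, and at most 4 called genes of each other list in each comparison are named, those with the largest change. A few pathway results are not reported here.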

Additional observations from a re-analysis of the deposited data

How the results depend on the processing

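No paired analysis was possible because the labels give no replicate numbers that could match libraries across groups. Of the 93 calls among the 33 genes over the 7 comparisons, 61 held under every alternative tried and 32 were lost under at least 1, of which 15 were lost only when a library was left out. No gene that was called changed direction. Leaving out 1 library at a time gave 24 to 27 called genes for PC against NC, 1 to 5 for RES against NC, 14 to 19 for POG against NC, 3 to 3 for DEG against NC, 17 to 20 for POG against RES, 5 to 10 for DEG against RES and 2 to 4 for DEG against POG. The count for RES against NC was 1 without either NC library and 2 without RES replicate 1. With dispersions from the compared groups alone the counts were 13 for RES against NC, 14 for DEG against NC and 10 for DEG against POG, and with FDR under 0.01 they were 4 for DEG against NC and 6 for DEG against RES (the stricter threshold accounts for the last 2 by construction, and the cause of the others was not tested). With plain library totals the share of higher calls among all called genes was 41.0% in place of 50.6% for PC, 64.0% in place of 44.1% for RES, 56.0% in place of 41.0% for POG and 49.4% in place of 36.6% for DEG, each against NC. The groups hold 2 or 3 libraries each, and ACTG2 and LMOD1 rest on few reads.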
